A study of Mus musculus with 48 samples.

Results

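The 10 genes described here encode factors that detect, split and clear stalled ribosomes: Pelo, Hbs1l, Abce1, Ascc2, Ascc3, Edf1, Gigyf2, Usp10, Ltn1 and Nemf. They were taken by symbol from a table of 55487 genes, and each symbol matched 1 gene. When a ribosome stops on a messenger RNA and the next ribosome runs into it, the collided pair is recognised, the leading ribosome is taken apart and the unfinished protein is marked for degradation. Pelo and Hbs1l enter a ribosome whose decoding site is empty, Abce1 separates the subunits, the ASC-1 complex with Ascc2 and Ascc3 pulls collided ribosomes apart, and Ltn1 with Nemf acts on the peptide left on the large subunit. Edf1 binds collided ribosomes and Gigyf2 lowers initiation on the message that carries them, while Usp10 removes ubiquitin from stalled small subunits. In the RefSeq annotation of GRCm38.p6 all 10 are protein-coding genes on 8 chromosomes. They are Pelo at chr13:115088355-115090158, Hbs1l at chr10:21295979-21368889, Abce1 at chr8:79683442-79711740, Ascc2 at chr11:4637696-4685699, Ascc3 at chr10:50592663-50851202. The others are Edf1 at chr2:25557824-25562084, Gigyf2 at chr1:87326931-87450810, Usp10 at chr8:119910360-119957560, Ltn1 at chr16:87376651-87432619 and Nemf at chr12:69311541-69357201.

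The measurements come from Ba/F3, a mouse line generally described as pro-B, whose growth depends on interleukin 3, here supplied at 1 ng/ml beside 10% fetal calf serum. The groups were WT and CRISPR-Cas9 clones with heterozygous loss of Rpl5 (Rpl5+/-), Rpl11 (Rpl11+/-) or Rpl22 (Rpl22+/-), homozygous loss of Rpl22 (Rpl22-/-), or a point mutation: R98S in Rpl10, and P131S or H137Y in Rps15. The sample titles write R98S and H137Y as homozygous; P131S is written so for the footprint libraries and once for the RNA libraries of the same clones. Every group received 0.1 mg/ml cycloheximide, which stops elongation, for 1 min before harvest, so there are no libraries without it. Each of the 8 genotypes had 3 clones, and each clone gave 1 poly(A) RNA library and 1 library of ribosome footprints (28 to 30 nt of messenger RNA shielded by a ribosome), 48 libraries in all. The labels do not say whether clones of a genotype came from separate editing experiments, so the p-values measure the spread between these clones.

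RNA libraries held 13029073 to 38258559 counts and footprint libraries 15598994 to 72044439, and the lowest count of any of the 10 genes in a library was 309. All 10 passed the filter on low counts in both assays. The footprint library with the fewest counts, Rpl22+/- clone 60, stood apart on the second principal component of the footprints, which held 11.7% of their variance. Rpl5 RNA was at 1556 ± 28.8 CPM (counts scaled by library size, mean ± SD, n = 3) in Rpl5+/- against 2316 ± 29.3 in WT, Rpl11 at 1074 ± 71.3 against 1674 ± 11 and Rpl22 at 683 ± 25.8 in Rpl22+/- and 632.5 ± 112 in Rpl22-/- against 948.2 ± 17.4. Rps15 RNA ranged from 906.7 to 1935 CPM among P131S clones and from 817.4 to 1829 among H137Y clones, against 1432 to 1455 in WT. Among pro-B markers, Ptprc was at 167 to 302 CPM in RNA, Cd79a and Cd79b stayed under 10 CPM, and Pax5, Ebf1, Rag1, Dntt, Igll1 and Vpreb1 were at or near 0 in every library, whereas the interleukin 3 receptor genes Csf2rb, Csf2rb2 and Il3ra were at 25.6 CPM or more.

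In bulk libraries like these, fewer cells of a kind and less RNA per cell cannot be told apart. Against WT, most calls among the rescue factors fell in the Rps15 genotypes, and at the footprint level all of them did. A call is an adjusted p under 0.05 in edgeR's quasi-likelihood test with Benjamini-Hochberg adjustment over all genes tested, and a change is a log2 difference with its standard error (SE). Over 70 tests (10 genes in 7 genotypes) RNA gave 8 calls, 6 higher and 2 lower, and footprints gave 6, all higher. Footprints relative to RNA, called translational efficiency (TE), gave 1 call. Among all genes, too, the Rps15 genotypes had the most calls. In RNA 47% of all genes were called in P131S and 41% in H137Y, and no other genotype exceeded 12.9%. In footprints the shares were 16.7% and 11.7%, with no other genotype above 1.62%. In TE they were 3.14% and 2.76%, with no other above 0.217%. All 7 comparisons share the 3 WT clones, so a WT clone that is high or low moves all of them. The heat map of changes by genotype shows where the calls lie.

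**Figure D1:**
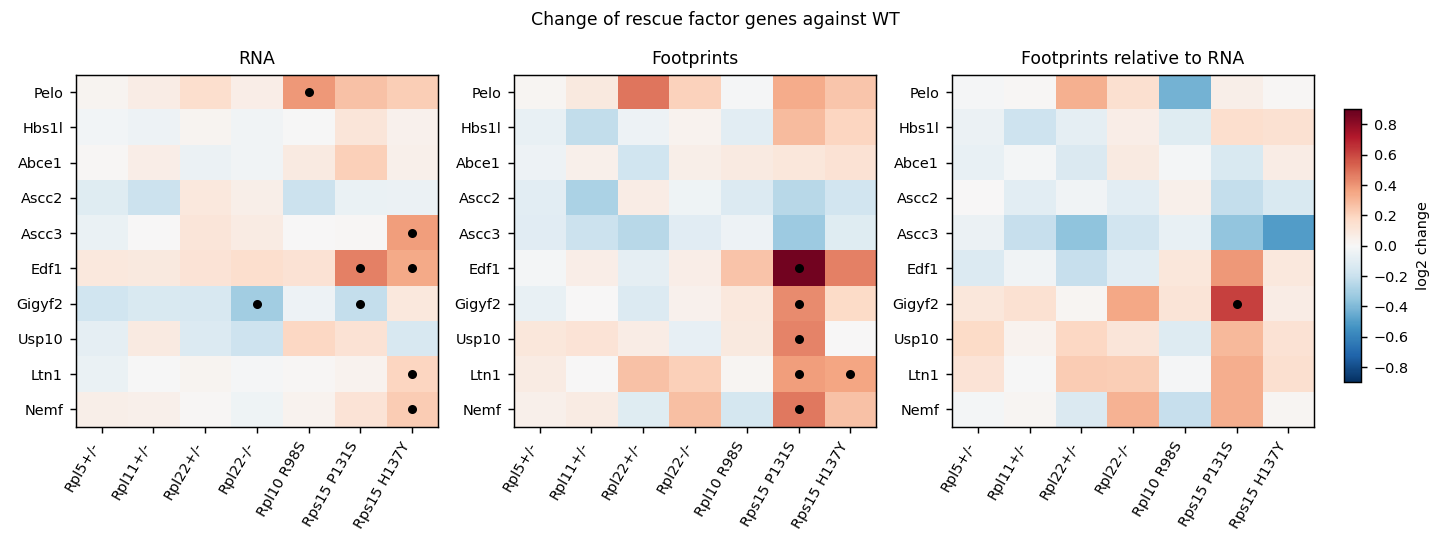
Log2 change against WT of the 10 genes (rows) in 7 genotypes (columns) for RNA, footprints and footprints relative to RNA; red is higher, blue lower, and a black dot marks an adjusted p under 0.05. Of the 15 dots, 13 lie in the Rps15 columns, the genotypes with the largest share of all genes called at each level. The darkest red cell is Edf1 footprints in P131S at 0.87.

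In RNA, 2 of the 10 genes were called in P131S and 4 in H137Y, where 47% and 41% of the 12814 genes tested were called, so neither count of members exceeds the share of all genes. In P131S, 3 were called with DESeq2 size factors and by limma voom, which added Pelo (adjusted p 0.0437 and 0.0481), and 4 by DESeq2, which added Pelo and Abce1 (0.0414 and 0.042). In footprints, 5 of 10 were higher in P131S, where 16.7% of 16217 genes were called and 8.42% were called higher. Of these 5, Edf1 and Nemf were called without the filter on low counts and when only P131S and WT were fitted, while Gigyf2, Usp10 and Ltn1 were not (adjusted p 0.0708, 0.0734 and 0.102 without the filter, 0.0625, 0.0848 and 0.0689 in the smaller fit). H137Y footprints gave 1 call of 10 against 11.7% of all genes, and 0 without the filter or when only H137Y and WT were fitted. For TE the single call, in P131S, stands against 3.14% of 16568 genes, and H137Y had 0 of 10 against 2.76% (1 at an unadjusted p under 0.05, 1 by DESeq2, 0 by limma voom).

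The median change of the 10 genes was 0.36 in P131S footprints, where the median over all genes was -0.04, and 8 of the 10 were above 0 (all genes 7690 of 16217). In P131S RNA it was 0.12 (all genes -0.01), and in P131S TE 0.22 (all genes -0.01). In H137Y the medians were 0.14 in RNA (all genes 0.01), 0.18 in footprints (all genes 0.00) and 0.06 in TE (all genes -0.02). Markers of other blood cells are given beside these values. Summed RNA of the 6 myeloid markers was 50.7 to 111 CPM in P131S and 47.7 to 178 in H137Y against 31.5 to 42.8 in WT, and that of the 4 mast cell markers was 98.7 to 278, 27.3 to 122 and 15.9 to 46.3 in the same order. The 3 interleukin 3 receptor genes summed to 2230 to 2840 CPM in P131S and 1420 to 2510 in H137Y, against 876 to 1040 in WT. The mast sum was also above all WT clones in Rpl5+/- (50.9 to 104), Rpl11+/- (50.8 to 79.7) and Rpl22+/- (68.4 to 89.1). So was the receptor sum there (1280 to 1340, 1070 to 1950 and 1150 to 1490). In Rpl22-/- and R98S both sums overlapped WT, and in H137Y the mast sum did. Of the myeloid and mast lists, Kit was at 0 in every RNA library and Elane was at 0.201 CPM or less. Their part in the Rps15 results was not tested.

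**Figure D2:**
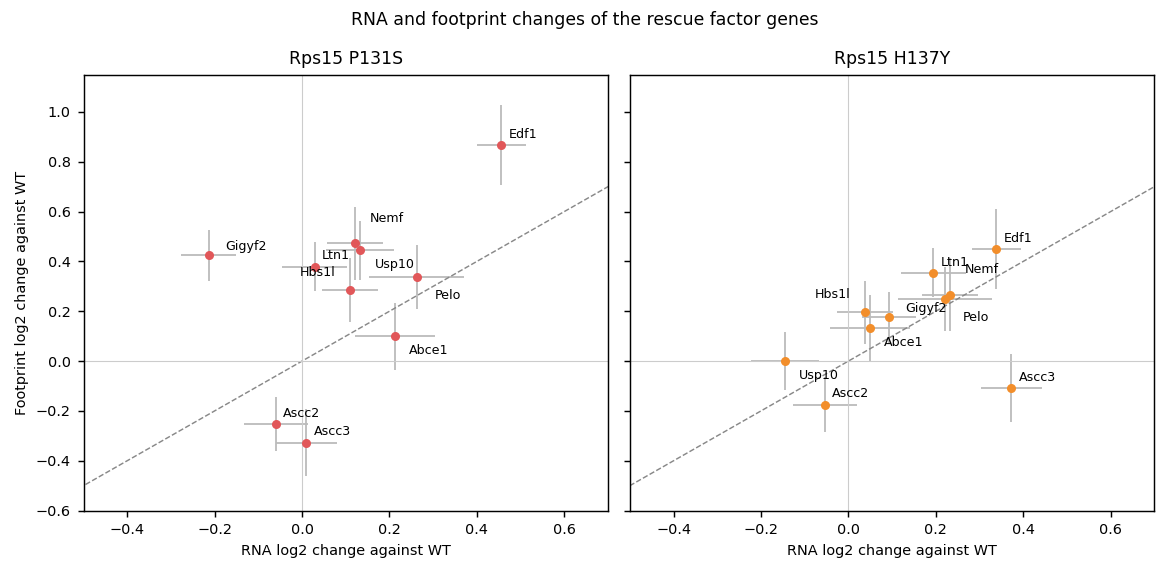
RNA change (horizontal) and footprint change (vertical), both log2 against WT, for the 10 genes in Rps15 P131S and Rps15 H137Y; bars are 1 standard error, and the dashed line marks equal change. In P131S 7 of the 10 genes lie above the line, where 8094 of all 16568 genes tested had a TE change above 0. Gigyf2 lies farthest from the line in P131S (RNA -0.21, footprints 0.42) and Ascc3 in H137Y (RNA 0.37, footprints -0.11).

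In the 5 genotypes of the large-subunit genes few rescue factor tests were called, and all genes too had fewer calls there than in the Rps15 genotypes. Uncalled changes reached 0.48 in footprints (Pelo, Rpl22+/-) and -0.42 in TE (Pelo, R98S). RNA gave 2 calls in 50 tests (6 when only the 2 genotypes compared were fitted), Gigyf2 lower in Rpl22-/- and Pelo higher in Rpl10 R98S, each 1 of 10 genes where 5.27% and 12.9% of all genes were called. Rpl5+/-, Rpl11+/- and Rpl22+/- RNA gave 0 calls of 10 each, with 1, 2 and 2 genes at an unadjusted p under 0.05 and 0 by DESeq2 or limma voom, where 1.04%, 11.8% and 3.9% of all genes were called. Fitted with WT alone, Rpl5+/- had 1 call, Gigyf2 (-0.18, adjusted p 0.0342), and R98S had 4: Pelo, Ascc2 (-0.19, adjusted p 0.0184), Edf1 (0.14, adjusted p 0.0202) and Usp10 (0.19, adjusted p 0.0109). Footprints gave 0 calls in 50 tests by edgeR (4 at an unadjusted p under 0.05, 1 by DESeq2, 0 by limma voom). The share of all genes called in footprints was 0.0123% for Rpl5+/-, 0.074% for Rpl11+/-, 0.253% for Rpl22+/-, 0.105% for Rpl22-/- and 1.62% for R98S. TE also gave 0 calls in 50 tests (3 at an unadjusted p under 0.05, 0 by DESeq2 or limma voom), where 0% of all genes were called for Rpl5+/- and Rpl11+/-, 0.00604% for Rpl22+/-, 0.0121% for Rpl22-/- and 0.217% for R98S.

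A single test over all 8 genotypes asked whether a gene varied at all. In RNA 7 of the 10 did, where 65.6% of all genes did: Edf1 (adjusted p 1.02e-05), Gigyf2 (0.000267), Ascc3 (0.000374), Usp10 (0.00132), Ascc2 (0.00933), Nemf (0.0196) and Pelo (0.0293). Ltn1, Abce1 and Hbs1l did not pass (0.127, 0.208 and 0.394). In footprints 6 of 10 varied, against 24.6% of all genes: Edf1 (0.00137), Gigyf2 (0.00814), Ltn1 (0.0116), Nemf (0.022), Pelo (0.0353) and Usp10 (0.0418). This count fell to 3 without P131S clone 20. For TE only Gigyf2 varied (adjusted p 0.00479, 1 of 10, against 6.6% of all genes).

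**Figure D3:**
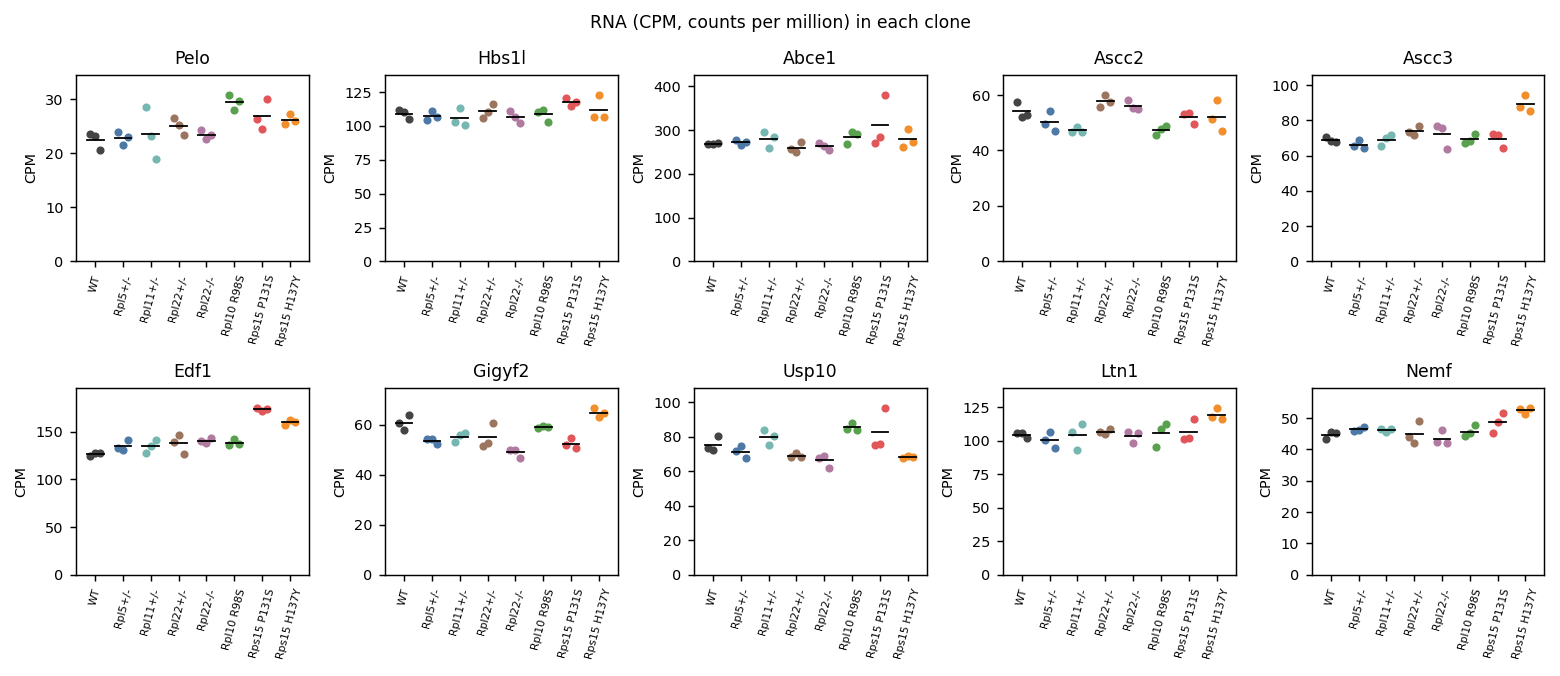
RNA in CPM (vertical, from 0) for each of the 3 clones (points) of the 8 genotypes, with the mean as a line, 1 panel per gene. Edf1 is highest in both Rps15 genotypes, Ascc3 in H137Y, Pelo in R98S, and Abce1 has 1 high P131S clone at 381 CPM.

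Pelo, which binds the empty decoding site and resembles a release factor, rose in Rpl10 R98S RNA. Its RNA was at 28.1, 30.9 and 29.7 CPM in R98S clones A29, A30 and A34 and at 20.7, 23.2 and 23.7 in WT clones 1, 2 and 3. All R98S clones were above all WT clones, a change of 0.39 (SE 0.108, adjusted p 0.0203), which no longer passed without WT clone 1, A30 or A34 (change 0.34 to 0.43 over all 6 omissions). Pelo footprints in R98S were at 35.2, 26.8 and 33.2 CPM, spread around the WT clones at 33.9, 31.4 and 30.8, a change of -0.01 (SE 0.129, adjusted p 0.992). TE was -0.42 (SE 0.168), which did not pass (adjusted p 0.43).

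Pelo footprints were highest in Rpl22+/-, at 45.3, 43.6 and 45.1 CPM in clones 13, 16 and 60, above all WT clones. That change of 0.48 (SE 0.129) did not pass (adjusted p 0.126), nor did that of 0.34 in P131S (adjusted p 0.0805). DESeq2 called both (adjusted p 0.0238 and 0.0412). In RNA, Rpl22+/- was at 26.5, 25.2 and 23.4 CPM, overlapping WT. Pelo (ENSMUSG00000042275) lies inside Itga1, whose RNA and footprints were at 0.036 CPM or less in every library.

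Hbs1l, the GTPase partner that delivers Pelo, and Abce1, the ATPase that parts the subunits, were called in no comparison at any level by edgeR with all clones. Hbs1l RNA ranged from 100.8 to 123 CPM over all 24 clones, and its largest RNA change was 0.11 (SE 0.064, P131S, adjusted p 0.167). Its footprints were at 73.1, 105 and 98.6 CPM in P131S clones 20, 24 and 63 against 77.8, 82.7 and 66.9 in WT, so that clone 20 lay within the WT range and clones 24 and 63 above it (change 0.28, SE 0.128, adjusted p 0.143). No Hbs1l count was exactly whole in the 48 libraries. Some were nearly whole, such as 2317.001 in RNA of Rpl5+/- clone 80, and others clearly fractional, such as 3305.391 in footprints of WT clone 3. Clearly fractional counts arise where reads are shared between features, and Hbs1l values are uncertain to that extent. Footprint counts of Edf1, Usp10 and Abce1 were exactly whole in 2, 3 and 0 of 24 libraries, which does not separate nearly whole from clearly fractional counts.

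Abce1 RNA was at 381, 271 and 283 CPM in P131S clones 20, 24 and 63 and at 270.3, 269 and 268 in WT. Clone 20 alone was far above WT, and the change of 0.21 (SE 0.091) did not pass by edgeR (adjusted p 0.0612), though DESeq2 called it (0.042). Abce1 footprints in the same clones were at 351, 313 and 339 CPM against 319, 326 and 292 in WT, a change of 0.10 (SE 0.134, adjusted p 0.692). In the RefSeq annotation Abce1 overlaps Anapc10, whose RNA stood at 13.7 to 22.7 CPM.

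In the ASC-1 complex, Ascc3, the helicase, rose in H137Y RNA. Ascc2, the subunit that binds ubiquitin, was called in no comparison when all genotypes were fitted. Ascc3 RNA was at 87.7, 85.4 and 94.7 CPM in H137Y clones 16, 2 and 6, against 67.8, 68.2 and 70.7 in WT clones 1, 2 and 3. All H137Y clones were above every clone of the other 7 genotypes, and the change against WT was 0.37 (SE 0.069, adjusted p 0.000211), called with any 1 clone left out. P131S clones 20, 24 and 63 were at 64.2, 72.05 and 71.9 CPM, around WT (change 0.01).

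Ascc3 footprints did not rise with its RNA. They were at 139, 173 and 144 CPM in H137Y clones 16, 2 and 6 and at 171, 165 and 156.5 in WT, an overlapping spread with a change of -0.11 (SE 0.135, adjusted p 0.69). The ratio of footprint to RNA CPM was 1.59, 2.03 and 1.52 in H137Y and 2.53, 2.41 and 2.21 in WT, so every H137Y clone was below every WT clone. The TE change of -0.50 (SE 0.154) missed the threshold (adjusted p 0.0681), and with the clone as a replicate block it was -0.50 (SE 0.142, adjusted p 0.0463, 1 of 10 genes where 3.83% of all genes were called). DESeq2 also called it (adjusted p 0.0384), as did the fit without H137Y clone 2 (-0.61, adjusted p 0.0401). In P131S the ratio was 1.69, 1.90 and 2.05, also below every WT clone (TE -0.36, SE 0.154, adjusted p 0.233).

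Ascc2 RNA varied over the genotypes without a call against WT when all were fitted. Fitted with WT alone, it was called in R98S (adjusted p 0.0184). It was lowest in R98S, at 47.6, 45.5 and 49.0 CPM, and in Rpl11+/-, at 46.7, 46.6 and 48.5, and highest in Rpl22+/-, at 55.6, 60.2 and 57.4. WT clones 1, 2 and 3 were at 52.9, 52.0 and 57.5 CPM, above both low groups and overlapping Rpl22+/-, and the changes against WT were -0.19 in R98S and -0.20 in Rpl11+/- (adjusted p 0.0836 and 0.0822). Its footprints were at 80.1, 76.6 and 78.7 CPM in Rpl11+/- and at 78.6, 77.8 and 84.3 in P131S, against 110, 87.9 and 88.8 in WT. Both groups lay below all WT clones, with changes of -0.28 and -0.25 (adjusted p 0.361 and 0.123).

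Edf1, the protein that recognises collided ribosomes and recruits Gigyf2 to them, showed the largest changes of the 10 genes at both RNA and footprint level. Its RNA was at 174, 175 and 171 CPM in P131S clones 20, 24 and 63, at 157, 160 and 162 in H137Y clones 16, 2 and 6, and at 128, 127 and 124 in WT clones 1, 2 and 3. Both Rps15 groups lay above every other clone of the series, whose highest was 147 CPM. P131S differed from WT by 0.46 (SE 0.056, adjusted p 2.01e-06). For H137Y the difference was 0.34 (SE 0.056, adjusted p 6.88e-05), and both were called with any 1 clone left out and under every other method tried.

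Edf1 footprints were at 282, 234 and 249 CPM in the P131S clones and at 136, 146 and 136 in WT. All P131S clones were above all WT clones, a change of 0.87 (SE 0.161, adjusted p 0.000959), called with any 1 clone left out (0.78 to 0.96). Only 2 of the 24 footprint libraries held an exactly whole count for Edf1, so reads shared with another feature may enter this value. In H137Y they were at 219, 149 and 204 CPM, with clone 2 close to WT, and the change of 0.45 (SE 0.161) did not pass (adjusted p 0.0754). Without clone 2 it was 0.60 (adjusted p 0.0287), and DESeq2 called it with all clones (adjusted p 0.0332). One R98S clone, A29, reached 213 CPM while A30 and A34 were at 141 and 145. The ratio of footprints to RNA was 1.62, 1.33 and 1.45 in P131S against 1.06, 1.148 and 1.10 in WT, without overlap, but the TE change of 0.39 (SE 0.172) did not pass (adjusted p 0.25).

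Gigyf2, which with the cap-binding protein Eif4e2 represses initiation, moved in opposite directions in RNA and in footprints in P131S. Its RNA was at 50.5, 51.9 and 54.8 CPM in P131S clones 20, 24 and 63 and at 63.8, 58.0 and 60.5 in WT, and fell by 0.21 (SE 0.062, adjusted p 0.00773). Its footprints were at 146, 117 and 149.5 CPM in the same clones and at 108, 106 and 93.3 in WT, and rose by 0.42 (SE 0.103, adjusted p 0.00695). Neither pair of groups overlapped, and both calls held with any 1 clone left out.

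The ratio of Gigyf2 footprints to RNA was 2.88, 2.26 and 2.73 in P131S and 1.69, 1.83 and 1.54 in WT. Every P131S clone was above every other clone of the series, the next being Rpl22-/- at 2.18. The TE change was 0.62 (SE 0.119, adjusted p 0.00164), called with any 1 clone left out (0.57 to 0.74); without the filter on low counts its adjusted p was 0.0587. In H137Y the ratio was 1.80, 1.82 and 1.73, within the WT range, with a TE change of 0.06. Gigyf2 also fell in RNA in Rpl22-/-. In clones 30, 649 and 776 it was at 49.9, 49.9 and 46.8 CPM, below every WT clone (change -0.31, SE 0.063, adjusted p 0.00439). Footprints of these clones stood at 105, 108 and 102 CPM (change 0.04) and TE at 0.35 (adjusted p 0.771). Rpl22+/- clones were at 51.4, 52.5 and 60.7 CPM, a change of -0.15 (adjusted p 0.237), and Rpl22-/- against Rpl22+/- differed by -0.16 (SE 0.063, adjusted p 1).

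**Figure D4:**
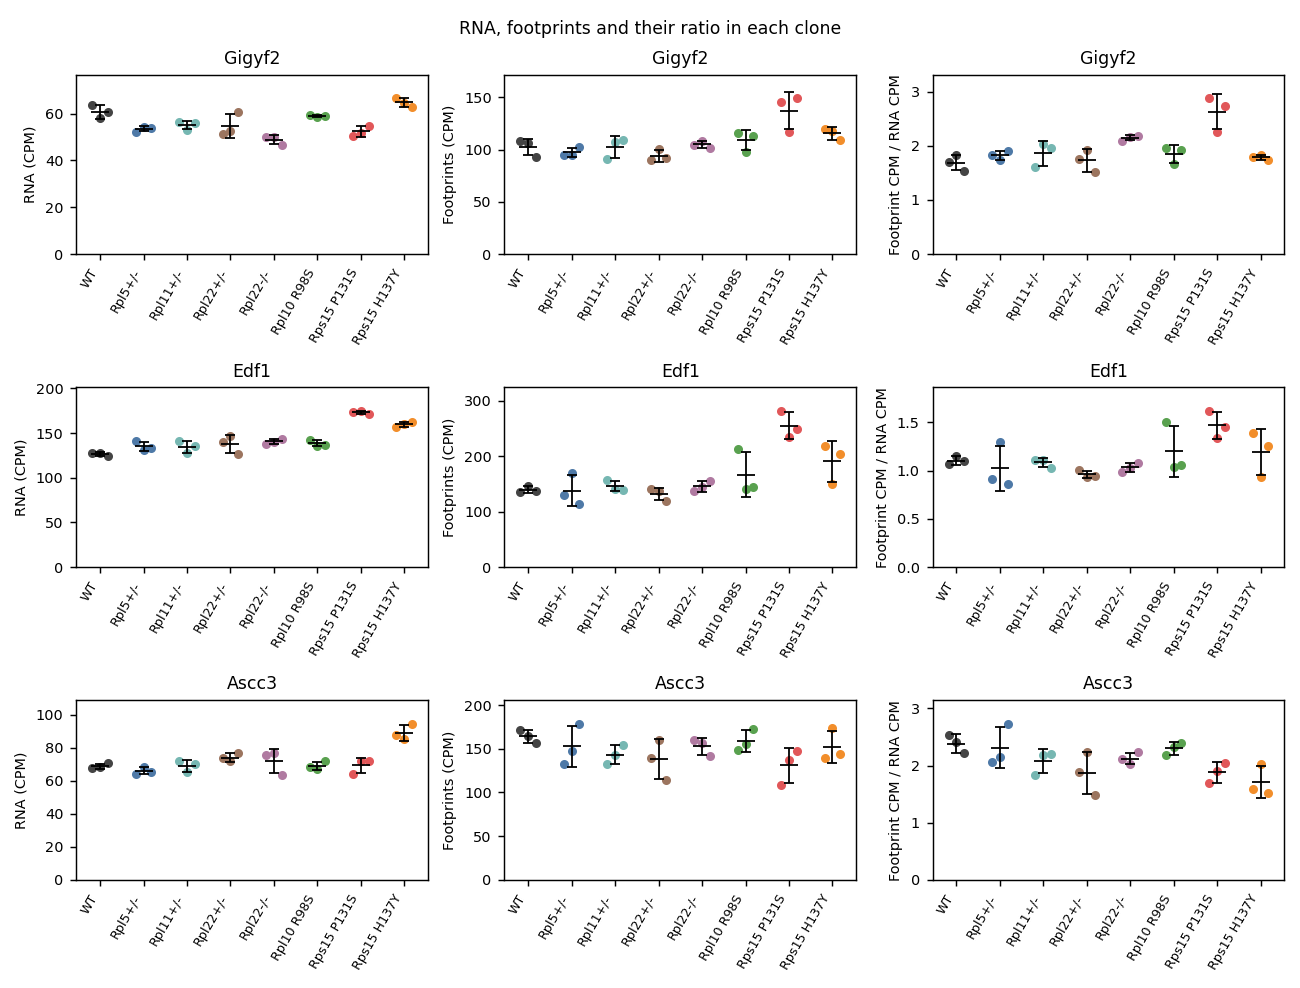
RNA, footprints (both CPM) and the ratio of footprint to RNA CPM for Gigyf2, Edf1 and Ascc3 in each clone (points), with mean and SD (n = 3) in black, for 8 genotypes. The P131S ratio of Gigyf2 (2.26 to 2.88) lies above all other clones. The H137Y ratio of Ascc3 (1.52 to 2.03) lies below the WT clones, as do its P131S and Rpl11+/- ratios.

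Edf1 and Gigyf2 are the 2 genes whose RNA was called in P131S by edgeR, in opposite directions, and the stretches upstream of their starts are shown for that reason (RefSeq, GRCm38.p6). The Edf1 stretch is chr2:25557597-25557823 and the Gigyf2 stretch chr1:87326748-87326930, both plus strand, each ending before the first annotated base of the gene. Capitals mark matches to GGGCGG or CCAAT on either strand (CCGCCC and ATTGG are their reverse complements).
Edf1: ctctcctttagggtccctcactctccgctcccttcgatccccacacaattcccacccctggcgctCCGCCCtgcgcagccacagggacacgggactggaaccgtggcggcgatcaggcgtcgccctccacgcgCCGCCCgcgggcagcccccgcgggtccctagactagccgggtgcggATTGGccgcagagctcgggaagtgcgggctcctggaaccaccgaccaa
Gigyf2: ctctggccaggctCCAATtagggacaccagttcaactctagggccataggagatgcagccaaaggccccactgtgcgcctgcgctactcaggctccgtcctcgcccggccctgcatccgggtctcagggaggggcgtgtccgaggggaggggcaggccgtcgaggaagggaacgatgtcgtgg
The Edf1 stretch has 2 matches to GGGCGG and 1 to CCAAT, and the Gigyf2 stretch has 1 match to CCAAT. In the RefSeq windows of 250 bases for all 10 genes, some of which run past the first annotated base of the gene, 5 held GGGCGG and 5 held CCAAT, against 32.7% and 33.8% of 32851 promoters searched on both strands. The 2 GGGCGG matches of Gigyf2 lie outside the stretch printed above. Of the other motifs searched, CCGGAAG matched in 0 of the 10 windows (6.91% of all promoters). CACGTG did so in 0 (6.02%), as did TATAAA (12.4%). TGACGTCA matched in 1 window, that of Abce1 (1.55%).

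Usp10, the deubiquitinase of the small subunit, rose in P131S footprints, a result that rests on clone 20. Footprints were at 113, 81.1 and 83.9 CPM in P131S clones 20, 24 and 63 and at 69.7, 64.3 and 70.4 in WT. All P131S clones were above WT, a change of 0.44 (SE 0.118, adjusted p 0.0122), but without clone 20 it was 0.27 and was not called (adjusted p 0.119). In RNA clone 20 was at 96.6 CPM and clones 24 and 63 at 75.1 and 75.7, within the WT values of 80.2, 72.4 and 73.1. The RNA change against WT was 0.13 (adjusted p 0.168). The highest Usp10 RNA outside P131S was in R98S, at 87.9, 84.6 and 83.9 CPM, above all WT clones (change 0.18, SE 0.078, adjusted p 0.121).

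Ltn1, the ubiquitin ligase of the stalled peptide, and Nemf, which recruits it and extends the peptide, rose in P131S footprints. Ltn1 footprints were at 292, 231 and 253 CPM in P131S clones 20, 24 and 63, at 262, 273 and 228 in H137Y clones 16, 2 and 6, and at 197, 196 and 203 in WT. Both Rps15 groups were above all WT clones. P131S gave a change of 0.38 (SE 0.098, adjusted p 0.0109), and that of H137Y was 0.35 (SE 0.098, adjusted p 0.023). The P131S call was lost without clone 20 (change 0.28, adjusted p 0.0883), and the H137Y call when any clone but H137Y clone 6 was left out (change 0.30 to 0.44). Both calls were also lost without the filter and when only the 2 genotypes compared were fitted (adjusted p up to 0.102 in P131S and 0.229 in H137Y). Rpl22+/- clones, at 251, 223 and 241 CPM, and Rpl22-/- clones, at 229, 222 and 241, were also above all WT clones, with changes of 0.26 and 0.21 that did not pass (adjusted p 0.26 and 0.718).

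Nemf footprints were at 113, 107 and 119 CPM in P131S clones 20, 24 and 63 and at 85.7, 87.4 and 72.1 in WT, without overlap. The change was 0.47 (SE 0.145, adjusted p 0.029), which no longer passed without WT clone 1, WT clone 3, clone 20 or clone 63 (0.42 to 0.56 over 6 omissions). H137Y clones 16, 2 and 6 were at 92.1, 117 and 86.0 CPM (change 0.27, adjusted p 0.261). In RNA it was H137Y that passed: Nemf was at 52.9, 53.2 and 51.2 CPM in H137Y against 45.1, 45.6 and 43.2 in WT (change 0.23, SE 0.064, adjusted p 0.00612) and at 51.7, 45.3 and 48.7 in P131S (change 0.12, adjusted p 0.124). Ltn1 RNA was at 118, 116 and 124 CPM in H137Y against 102, 106 and 105 in WT, a change of 0.19 (SE 0.074, adjusted p 0.0417) that was lost when any clone but H137Y clone 2 was left out, and without the filter (adjusted p 0.0797).

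**Figure D5:**
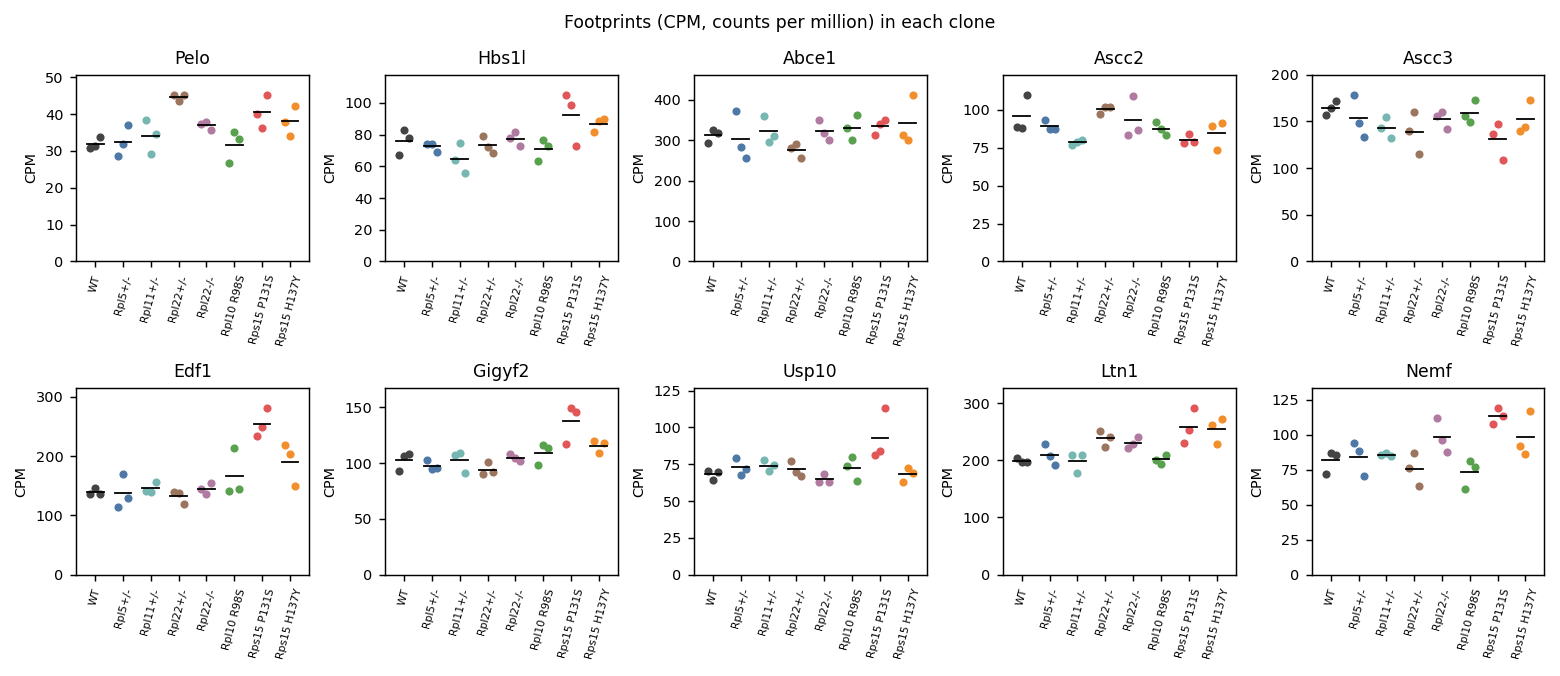
Footprints in CPM (vertical, from 0) for each of the 3 clones (points) of the 8 genotypes, with the mean as a line, 1 panel per gene. P131S clones lie above all WT clones for Edf1, Gigyf2, Usp10, Ltn1, Nemf and Pelo, and Usp10 clone 20 (113 CPM) lies above the other P131S clones. H137Y clones lie above all WT clones for Edf1, Gigyf2, Ltn1 and Pelo. Rpl22-/- clones do so for Ltn1, Nemf and Pelo, and Rpl22+/- clones for Ltn1 and Pelo. The share of all genes separated in this way was not computed.

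Set directly against each other, the Rps15 genotypes differed in 3 rescue factors in RNA (of 10, where 25.2% of all genes differed), 1 in footprints (4.17%) and 1 in TE (0.682%). Ascc3 RNA was lower in P131S than in H137Y by a change of -0.36 (SE 0.069, adjusted p 0.000672), and Gigyf2 RNA by -0.30 (SE 0.062, adjusted p 0.00123), without overlap. Usp10 was higher in P131S in RNA (0.28, SE 0.078, adjusted p 0.0118) and in footprints (0.44, SE 0.118, adjusted p 0.0358), and without clone 20 neither was called (0.15 and 0.29). The footprint difference was also lost without any 1 of the H137Y clones (0.41 to 0.51) and without the filter (adjusted p 0.0719). Gigyf2 TE was higher in P131S by 0.55 (SE 0.119, adjusted p 0.0191), a call lost without P131S clone 20, P131S clone 63 or H137Y clone 6 (adjusted p 0.113, 0.0633 and 0.0561) and without the filter (0.174). When only these 2 genotypes were fitted, none of the 5 differences was called, and their adjusted p in RNA was 0.0669 for Ascc3, 0.0906 for Gigyf2 and 0.202 for Usp10. Rpl22-/- against Rpl22+/- gave 0 calls among the 10 genes at all 3 levels by edgeR, DESeq2 and limma voom (1, 2 and 2 at an unadjusted p under 0.05 in RNA, footprints and TE), where 0.0078%, 0.00617% and 0% of all genes were called.

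Other genes of the pathway were read from a list of 42 that covers rescue and splitting, the ASC-1 complex with ribosome ubiquitination, collision signalling, nascent chain quality control and decay of stalled messages. In P131S RNA 19 were higher and 13 lower (all genes 23.7% and 23.4%), and in H137Y RNA 14 and 12 (21% and 20%). Footprints gave 7 higher and 8 lower in P131S (8.42% and 8.28%) and 4 and 5 in H137Y (5.22% and 6.44%). TE gave 2 and 4 in P131S (0.881% and 2.26%) and 0 and 2 in H137Y (0.61% and 2.15%). For the other genotypes RNA gave 6 calls in Rpl11+/- (11.8% of all genes) and 6 in R98S (12.9%). There were 2 each for Rpl5+/- (1.04%), Rpl22+/- (3.9%) and Rpl22-/- (5.27%), while edgeR gave 0 of 210 tests in footprints and in TE (18 and 10 at an unadjusted p under 0.05; no other method was run on this list).

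Outside the Rps15 genotypes, changes of at least 0.5 were called for Cnot4 and Impact. Cnot4, a ubiquitin ligase of the CCR4-NOT complex, was at 30.6, 29.2 and 32.6 CPM in WT RNA and lower in all 7 mutants, where the highest clone was at 26.7. Its changes were -0.996 in P131S, -0.87 for Rpl22-/-, -0.83 for Rpl11+/-, -0.82 for Rpl22+/-, -0.71 for H137Y, -0.54 for R98S and -0.45 for Rpl5+/- (adjusted p 0.0424 in the last). All 7 use the same 3 WT clones. Impact, an inhibitor of the Gcn2 kinase pathway, rose in RNA by 0.71 in H137Y, 0.63 in R98S, 0.59 in Rpl11+/- and 0.56 in P131S, the last outside the 6 largest there and given after its value was seen.

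Genes of collision detection and ubiquitination moved in both directions in the Rps15 clones. Zfp598, the ligase that marks collided small subunits, rose in P131S RNA by 0.63 (104.6 ± 12.4 against 67.4 ± 1.05 CPM in WT, SD, n = 3, as for the means that follow), and Gcn1, the collision sensor upstream of the Gcn2 kinase, rose by 0.59 in P131S and 0.69 in H137Y. Etf1, the release factor, rose by 0.62 in P131S RNA, whereas Gtpbp2, a GTPase of the Hbs1l family, fell by 1.02 there. The P131S footprint to RNA ratio was 0.063 ± 0.027 for Zfp598 against 0.108 ± 0.017 in WT. For Etf1 it was 0.477 ± 0.058 against 0.606 ± 0.025, for Gcn1 2.231 ± 0.118 against 2.238 ± 0.201. Gtpbp2 was higher, at 0.371 ± 0.086 against 0.263 ± 0.04. In the test over all genotypes, Zfp598 and Etf1 passed neither in footprints (adjusted p 0.871 and 0.16) nor in TE (0.23 and 0.402). Gcn1 and Gtpbp2 passed in footprints (0.00579 and 0.0145). Otud3, a deubiquitinase with under 5 CPM on average, rose by 0.89 in H137Y RNA, and Usp21, another deubiquitinase, fell by 0.74 in H137Y RNA and by 1.63 and 1.82 in P131S and H137Y footprints, from 3.62 ± 1.27 CPM in WT to 1.17 ± 0.795 and 1.03 ± 0.295. G3bp2, whose protein partners Usp10, rose in footprints by 0.81 in P131S (294.1 ± 21.2 against 168.2 ± 10.5 CPM) and 0.63 in H137Y. Tcf25 rose in footprints by 0.69 and 0.58 and Drg2 by 0.68 in P131S, Rnf25 rose by 0.52 in H137Y, and Klhdc10 fell by 0.73 in P131S.

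The recycling factors Eif2d, Denr and Mcts1, which clear small subunits after release, had changes that differed in level and direction in the Rps15 genotypes. Eif2d footprints averaged 49.2 ± 3.3 CPM for P131S and 57.9 ± 8.01 for H137Y, with WT at 84.2 ± 7.11 (changes -0.77 and -0.54), and its footprint to RNA ratio was 0.775 ± 0.066 and 0.878 ± 0.175 against 1.35 ± 0.139 (TE -0.82 and -0.65). Denr RNA rose by 0.64 in P131S, but its TE was -0.78, with a ratio of 0.889 ± 0.091 against 1.49 ± 0.21. Mcts1, its partner, fell in H137Y by 0.71 in RNA and by 0.77 in footprints. Rnf10, a ligase that ubiquitinates small-subunit proteins, had the largest called TE changes of the 42 genes, -0.86 in P131S and -0.94 in H137Y, with a ratio of 0.065 ± 0.004 and 0.063 ± 0.015 against 0.116 ± 0.008 in WT.

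Across the 24 RNA libraries, the 10 genes did not move as 1 block. Pearson's r between pairs of them ran from -0.53 to 0.70 over 45 pairs, with a median of 0.22 (footprints -0.53 to 0.76, median 0.24). The highest RNA pair was Abce1 with Usp10, both of which were high in P131S clone 20, and in footprints it was Edf1 with Gigyf2 at 0.76. The genes most like each one among all tested were Ptma (0.944) and Sephs2 (0.926) for Edf1, Pum3 (0.924) and Gspt1 (0.89) for Abce1, Vps13c (0.903) for Ascc3, Ahctf1 (0.872) for Nemf, Cnst (0.869) for Gigyf2 and Vta1 (0.858) for Ascc2. They were Utp18 (0.851) for Usp10, Ankrd17 (0.833) for Ltn1, Mrpl38 (0.828) for Pelo and Lrrk1 (0.812) for Hbs1l. All points share the same 24 libraries, and the 3 clones of a genotype are not independent of its genotype.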

How the data were processed

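RNA and footprint libraries of 24 clones were read from 1 table. Its values are estimated counts per Ensembl gene, deposited by the authors without normalization. With zeros included 88.5% are whole numbers, and of the non-zero values 74.3% are in RNA and 56.9% in footprints. Per the submitters' processing notes STAR 2.6.1d, Salmon 1.4.0, DESeq2 1.30 and the build GRCm38 were used, with no role or order; the annotation, the feature counted and the handling of reads with several matches are not given in the sources used here. Counts were rounded. Genes under about 10 counts at the median library or 15 in total were left out, which kept 99.97% of counts. Library sizes were scaled by TMM within each assay, and CPM use those sizes. edgeR 4.0.16 (R 4.3.3) fitted all 24 libraries of an assay with 1 mean per genotype, and all 48 with 16 groups for TE, as the footprint change minus the RNA change; tests were two-sided quasi-likelihood F tests. Permuting clones exactly for any one gene would give no p below 0.1. Statistics were tested on simulated data first. The simulated counts had the same spread in both assays and no pairing of clones, unlike the data, so that test does not cover these features.

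The same clone number marks RNA and footprints of 1 divided lysate, per the labels' protocols. Deviations from the genotype mean over 12074 genes correlated at 0.172 to 0.581 within a clone and at -0.484 to -0.013 between clones. No pair of replicates agreed within sampling noise. Alternatives were DESeq2 size factors, no filter, limma voom 3.58.1, DESeq2 1.42.0, fits of only the 2 genotypes, the clone as replicate block, TMM over all 48 libraries, and each clone left out in turn.

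The 10 genes and the list of 42 were chosen with earlier results of these data known. All 10 are named; of the 42, those called with a log2 change of at least 0.5 are named, at most the 6 largest per comparison and level. Cnot4 in Rpl5+/- and Impact in P131S were added after their values were seen. Promoters are RefSeq windows of GRCm38.p6. Some marker genes are not reported here.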

Additional observations from a re-analysis of the deposited data

Results flagged for a closer look

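In all, 5 differences between the Rps15 genotypes were taken up because a direct test of P131S against H137Y passed the threshold: Ascc3 RNA (-0.36), Gigyf2 RNA (-0.30), Usp10 RNA (0.28), Usp10 footprints (0.44) and Gigyf2 TE (0.55). A further one is Gigyf2 in P131S against WT, where the change in footprints differed from that in RNA by 0.62. Single outlying clones were not tested in groups of 3. P131S clone 20 was the highest of its group for Abce1 RNA (381 CPM) and for Usp10 in both assays (96.6 and 113 CPM).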

How the results depend on the processing

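For single genes there were 20 called results, against WT and between genotypes. Of these, 9 were called under every alternative method and 11 with any 1 clone left out. The 459 values computed under another setting covered 39 results, the called ones and others picked for a larger change. None of these values changed sign, but that choice makes this likely, and smaller changes were not followed. RNA calls numbered 8, and 7 to 12 under the alternatives, most when only the 2 genotypes compared were fitted. Footprint calls numbered 6, but 2 without the filter on low counts and 2 when only the 2 genotypes compared were fitted. Genes varying in footprints numbered 6, but 3 without the filter. TE calls numbered 1, but 0 without the filter, 2 by DESeq2 and 2 with the clone as replicate block, where Ascc3 in H137Y joined Gigyf2 in P131S; the block changed no other call. Genes varying in TE numbered 1, and 0 without the filter. Leaving out 1 clone gave 6 to 11 RNA calls, 4 to 7 footprint calls, 1 to 2 TE calls (2 without H137Y clone 2 or P131S clone 20), and 6 to 7, 3 to 7 and 1 genes varying. The filter sets how many genes the adjustment covers; the cause of the other shifts was not tested. With 3 clones a group, TE carries the spread of both assays, and its SE was 0.119 to 0.172 among the 10 genes.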
